A study of Mus musculus with 6 samples.

Results

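The 9 genes described here, Selplg, Cd44, Cd47, Icam1, Icam2, Pecam1, Mcam, Jaml and F11r, encode a ligand of the selectins, a hyaluronan receptor and immunoglobulin-type surface molecules through which neutrophils touch vessel walls, platelets and other cells. They are 9 of the 35853 genes into which the transcripts of the study were summed. The list was chosen by name with values of the Ly6C-high against Ly6C-low contrast already known, so differences between the groups in the level of these genes are given as descriptions, and counts of those past a threshold are shown beside the share of all genes with nothing read from them. The cells were blood neutrophils of wild-type BALB/c mice that carried orthotopic tumours of 4T1, a mouse mammary carcinoma line, and blood was taken 4 weeks after implantation. Cells carrying Ly6G, a surface protein of mouse neutrophils, were sorted by surface Ly6C into Ly6C-high and Ly6C-low neutrophils, with 3 libraries of polyadenylated RNA in each group. Both groups came from tumour-bearing mice, and no cells of tumour-free mice were among the libraries analysed here. The labels do not give the age of the mice or whether each library of a group stands for another mouse, so errors measure the spread between libraries, which may be technical.

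Neutrophils leave blood in steps. PSGL-1, the product of Selplg, and CD44 bind selectins and slow the cell on the vessel wall, integrins then hold it by binding ICAM-1 and ICAM-2 on endothelium, and PECAM-1 and the junctional molecules act as the cell passes between endothelial cells. CD47 is the signal on a cell's surface that restrains engulfment through SIRPα on phagocytes, MCAM (CD146) is best known from endothelium and melanoma, and JAML is a leukocyte molecule that binds the coxsackie and adenovirus receptor on epithelium. F11r encodes JAM-A, a tight junction protein that leukocytes and platelets also carry.

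The transcripts of Cd44 and Pecam1 that took most of the reads are not alike in structure, and short sequences from them are shown. The levels below do not rest on these short stretches alone. The standard Cd44 transcript joins its constant exons 5 and 6 directly, while the second most abundant Cd44 transcript continues from the same exon 5 into a variable exon. The first 2 sequences are of 60 bases each across that boundary, read 5′ to 3′ from the GENCODE M21 transcripts, which lie on the minus strand of chromosome 2. The bases in capitals are those of the exon that follows, and the bases before them are the same in both. The third sequence, of 53 bases, comes from the Pecam1 transcript on the minus strand of chromosome 11 that is annotated as a retained intron, and its capitals mark the 23-base coding exon that this transcript contains within intron sequence.
Cd44 standard: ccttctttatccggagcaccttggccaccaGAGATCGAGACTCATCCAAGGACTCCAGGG
Cd44 variant: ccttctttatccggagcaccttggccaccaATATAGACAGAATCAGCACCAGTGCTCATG
Pecam1 short exon: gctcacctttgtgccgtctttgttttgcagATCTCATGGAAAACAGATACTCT

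The 9 genes differed widely in level, from some of the most abundant transcripts of these cells to transcripts with few reads. Per length, as TPM, the abundance of a gene's transcripts corrected for their length and relative to all transcripts of the library, Selplg averaged 835 ± 29.0 TPM in Ly6C-high and 863 ± 120 TPM in Ly6C-low neutrophils (SD, n = 3 each here and below), and ranked 118 of 35853 genes by its mean over the 6 libraries. Cd44 averaged 645 ± 24.8 TPM in Ly6C-high and 595 ± 138 TPM in Ly6C-low cells, at rank 167. Cd47 averaged 314 ± 14.9 TPM in Ly6C-high and 320 ± 15.4 TPM in Ly6C-low cells, at rank 319. The ligand, the hyaluronan receptor and CD47 together held between 88.9% and 91.2% of the summed TPM of the 9 genes in every library. That sum was 1938, 2014 and 1985 TPM in the Ly6C-high libraries and 2153, 2086 and 1669 TPM in the Ly6C-low libraries, where the third Ly6C-low library was the lowest of the 6.

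The remaining members lay far below these genes. Jaml averaged 115 ± 10.3 TPM in Ly6C-high and 124 ± 5.96 TPM in Ly6C-low cells. Pecam1 averaged 39.5 ± 4.70 TPM in Ly6C-high and 41.2 ± 4.00 TPM in Ly6C-low cells, and Mcam averaged 20.2 ± 1.38 TPM in Ly6C-high and 14.4 ± 0.421 TPM in Ly6C-low cells. Icam1 and Icam2, the endothelial counter-receptors of the leukocyte integrins, were low in these libraries of sorted neutrophils. Icam1 averaged 4.37 ± 0.576 TPM in Ly6C-high and 6.65 ± 1.46 TPM in Ly6C-low cells, and Icam2 averaged 3.77 ± 1.11 TPM in Ly6C-high and 4.78 ± 1.04 TPM in Ly6C-low cells. F11r was the lowest, with 1.01 ± 0.239 TPM in Ly6C-high and 0.950 ± 0.192 TPM in Ly6C-low cells, at rank 9467.

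The order of the levels was compared between neighbours within each library, which does not use the difference between the groups. By geometric mean over the 6 libraries Selplg stood 1.38-fold above Cd44, Cd44 1.94-fold above Cd47, Cd47 2.66-fold above Jaml and Jaml 2.97-fold above Pecam1. Pecam1 stood 2.35-fold above Mcam, Mcam 3.20-fold above Icam1 and Icam2 4.31-fold above F11r. Each of these 7 steps had the same direction in 6 of 6 libraries, with an exact two-sided paired permutation p of 0.03125, the smallest that 6 libraries allow, and 0.0357 after Benjamini-Hochberg adjustment for 8 pairs. The pairs were picked from the order of mean TPM in these same libraries, so the p-values are not independent support for that order. They also count libraries that may share mice as separate units. Icam1 stood 1.29-fold above Icam2, in 5 of 6 libraries, and these neighbours did not differ beyond their spread (exact p = 0.156). Counted over protein-coding transcripts alone the order of Pecam1 and Mcam turned round, with Pecam1 lower by a log2 ratio of -1.62 and an adjusted p of 0.0357 by the same exact test.

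**Figure D1:**
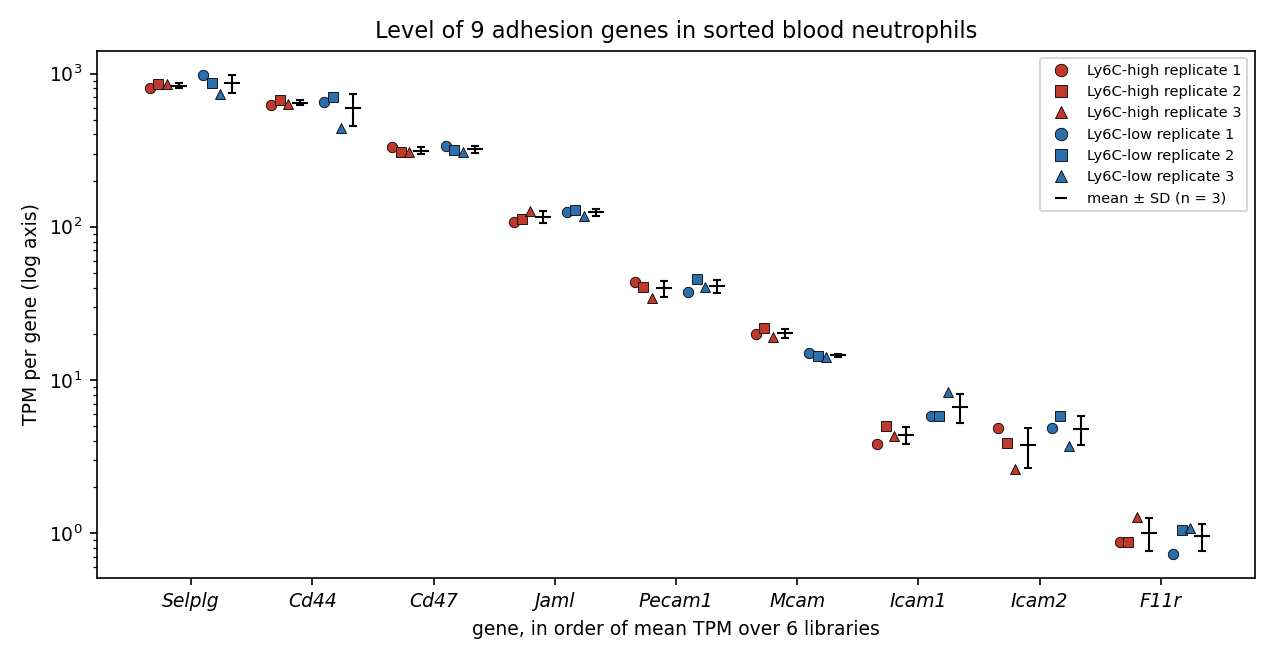
TPM per gene on a log axis for the 9 genes, in order of their mean over 6 libraries, with 1 symbol per library, Ly6C-high left of Ly6C-low, and bars for mean ± SD (n = 3). The levels run from 979.6 TPM (Selplg in the first Ly6C-low library) to 0.730 TPM (F11r in the same library), and the 2 groups lie apart for Mcam and Icam1.

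The comparison of the groups asked which transcripts differ between neutrophils that carry much and little Ly6C when both circulate in tumour-bearing mice. For it, reads were scaled per gene and library as CPM, counts relative to the library's total after TMM scaling, which compares 1 gene between libraries and not 1 gene with another. The sorting marker followed the labels: Ly6c1 and Ly6c2 together gave 167, 222 and 172 CPM in the Ly6C-high libraries against 18.7, 32.1 and 22.2 CPM in Ly6C-low, and the means stood in a ratio of 7.67 (exact two-sided permutation p = 0.1, the smallest that 3 against 3 allows). Estimated counts summed to between 17192372 and 20973623 per library. The third Ly6C-low library stood apart from the rest, at 38.02 on the first principal component of log2 CPM against -19.65 to 3.91 for the other 5, and this component held 32.8% of the variance. It was also the lowest library for 4 of the 9 genes, and the log2 fold changes without it are given beside those it moves most.

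All 9 genes passed the filter on low counts. In edgeR's quasi-likelihood test over 11406 genes, 4 genes passed a Benjamini-Hochberg adjusted p of 0.05, which is 0.0351% of those tested, and 0 of the 9 were among them. The 2 of these 4 that were higher in Ly6C-high cells were Ly6c1 and Ly6c2, the sorting marker. The DESeq2 Wald test on the same counts called 1 of the 9, Mcam, beside 126 of all 11406 genes. With limma voom 0 of the 9 were called, beside 5 of all 11406 genes. At an unadjusted edgeR p under 0.05 there were 2 of the 9, Mcam and Icam1, beside 14.3% of all genes tested. Those are also the 2 of the 9 whose groups of 3 libraries did not overlap in CPM, as was so for 21.1% of all genes tested. Since values of this contrast were known when the list was drawn up, nothing is read from these shares. The median log2 fold change, Ly6C-high over Ly6C-low, was 0.08 over the 9 genes and 0.00 over all genes tested, whose quartiles were -0.19 and 0.16. Of the 9 genes 8 lay above 0, beside 49.2% of all genes. Scaling by library size alone moved the median of all genes to -0.11, and then 4 of the 9 lay above 0, beside 31.9% of all genes. In bulk RNA of sorted cells, fewer cells that carry a transcript and less of it per cell cannot be told apart.

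Mcam had the largest difference of the 9. It gave 50.7, 54.4 and 46.4 CPM in the Ly6C-high libraries, against 35.9, 33.8 and 30.1 CPM in the Ly6C-low libraries. The lowest Ly6C-high library lay above the highest Ly6C-low library. The means were 50.5 ± 3.99 CPM in Ly6C-high and 33.3 ± 2.97 CPM in Ly6C-low cells, a 1.52-fold higher level in Ly6C-high cells. The log2 fold change, Ly6C-high over Ly6C-low, was 0.60 (standard error, SE, of 0.10, 95% interval 0.38 to 0.83), and 93.3% of the genes tested had a smaller absolute log2 fold change. Without the third Ly6C-low library it was 0.53. These values rest on between 567 and 1020 estimated counts per library.

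Mcam reads fell mainly on a pair of coding transcripts. The transcript of 16 exons and 1944 coding bases held 67.1 ± 2.66% of the gene's TPM in Ly6C-high and 64.6 ± 14.3% in Ly6C-low cells. The transcript of 15 exons and 1818 coding bases held 27.1 ± 3.25% in Ly6C-high and 28.0 ± 11.4% in Ly6C-low cells. Both shares varied more among the Ly6C-low libraries, where the third held 48.4% in the longer and 40.1% in the shorter transcript. The share of the longer one did not differ between the groups beyond that spread (exact permutation p = 0.9). Over protein-coding transcripts alone the Mcam difference was again 0.60 (SE 0.10).

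Icam1 was the member with the opposite sign. ICAM-1 is the ligand of the β2 integrins LFA-1 and Mac-1, and its gene is a known target of NF-κB. It gave 8.46, 10.7 and 9.30 CPM in the Ly6C-high libraries, against 12.1, 12.0 and 16.5 CPM in the Ly6C-low libraries. The highest Ly6C-high library lay below the lowest Ly6C-low library. The means were 9.49 ± 1.14 CPM in Ly6C-high and 13.5 ± 2.56 CPM in Ly6C-low cells, so the Ly6C-low level was 1.43-fold the Ly6C-high level. The log2 fold change was -0.51 (SE 0.16, 95% interval -0.86 to -0.16), and 90.0% of the genes tested had a smaller absolute log2 fold change.

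The third Ly6C-low library held the highest Icam1 value and without it the log2 fold change was -0.34, which still left the groups apart. Between 160 and 311 estimated counts per library stand behind these values. The coding transcript of 7 exons held 80.5 ± 2.69% of the Icam1 TPM in Ly6C-high and 83.7 ± 4.13% in Ly6C-low cells (exact permutation p = 0.3), and a transcript with a retained intron held the rest. Over the coding transcript alone the log2 fold change was -0.56 (SE 0.16).

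**Figure D2:**
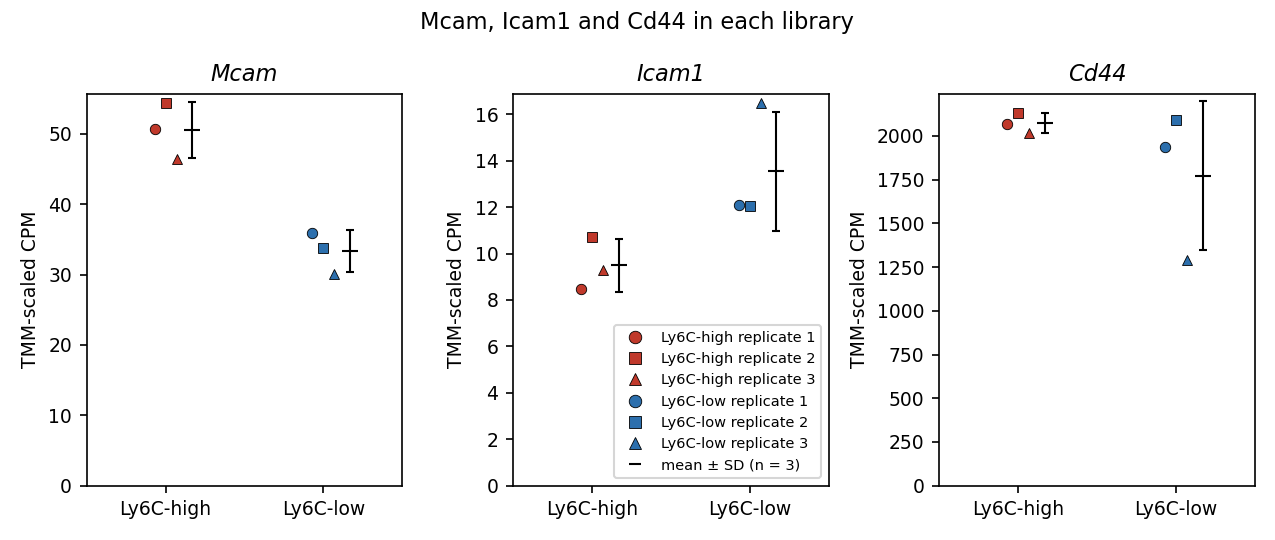
TMM-scaled CPM of Mcam, Icam1 and Cd44 in each library, with 1 symbol per library, bars for mean ± SD (n = 3) and axes from 0. Mcam is at 46.4 CPM or more in the Ly6C-high libraries and at 35.9 CPM or less in the Ly6C-low libraries, Icam1 lies the other way, and for Cd44 the third Ly6C-low library alone is low, at 1289 CPM.

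The windows around the RefSeq start sites of both genes are shown because these were the 2 members whose groups did not overlap. They come from the RefSeq promoter table of build GRCm38.p6, which held 6 of the 9 genes, and run from 250 bases before to 50 bases after the start site on the plus strand. Capitals mark matches to the letters GGAAATTCC (an NF-κB motif), TGACGTCA (the cyclic AMP response element) and TATAAA (the TATA box), searched on both strands. The Icam1 window is chr9:21015690-21015989 and the Mcam window is chr9:44134408-44134707, both on mouse chromosome 9.
Icam1 promoter: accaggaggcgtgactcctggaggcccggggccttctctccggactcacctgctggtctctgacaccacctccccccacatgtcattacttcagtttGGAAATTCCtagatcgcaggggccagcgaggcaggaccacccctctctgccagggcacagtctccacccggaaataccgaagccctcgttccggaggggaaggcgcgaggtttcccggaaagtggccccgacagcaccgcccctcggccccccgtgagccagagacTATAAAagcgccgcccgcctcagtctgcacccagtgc
Mcam promoter: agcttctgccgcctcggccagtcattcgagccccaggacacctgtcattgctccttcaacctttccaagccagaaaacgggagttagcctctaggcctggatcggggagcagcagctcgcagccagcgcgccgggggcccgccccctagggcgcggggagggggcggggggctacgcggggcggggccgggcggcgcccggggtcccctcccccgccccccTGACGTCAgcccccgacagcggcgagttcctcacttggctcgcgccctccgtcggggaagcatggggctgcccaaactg

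The Icam1 window held the NF-κB letters at -153 from the start site, which 0.317% of the 32851 promoters of the same length hold. It held the TATA letters at 13, which 13.6% hold. The Mcam window held the cyclic AMP response element at -29, which 1.79% of promoters hold, and 5 copies of GGGCGG (an Sp1 motif), which 35.7% hold at least once. The Icam1 window also held 2 copies of GGGCGG, and the Mcam window 1 of GAGGAA (a PU.1 motif), which 28.3% hold. None of the motif matches overlapped another of a different name. They describe exact letters in these windows, so the shares depend on the spelling chosen for each motif, and binding was not measured.

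Selplg, the main selectin ligand of neutrophils, was abundant in both groups. It gave 1195, 1269 and 1260 CPM in the Ly6C-high libraries, against 1371, 1214 and 990.6 CPM in the Ly6C-low libraries. The Ly6C-high values lay inside the range of the Ly6C-low values. The log2 fold change was 0.06 (SE 0.12, 95% interval -0.21 to 0.33.) It was -0.06 without the third Ly6C-low library and -0.04 when scaled by library size alone, so no direction can be given. The coding transcript of 2 exons held 91.8 ± 1.30% of its TPM in Ly6C-high and 90.7 ± 1.00% in Ly6C-low cells.

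Cd44 gave 2069, 2130 and 2017 CPM in the Ly6C-high libraries, against 1936, 2091 and 1289 CPM in the Ly6C-low libraries. The groups overlapped, and the third Ly6C-low library was the one low value. The log2 fold change was 0.23 (SE 0.16, 95% interval -0.13 to 0.58), and it was 0.04 without that library. CD44 exists in a standard form and in variants with added exons in the stem of the protein. The standard transcript of 9 exons held 67.5 ± 2.16% of the Cd44 TPM in Ly6C-high and 68.5 ± 1.79% in Ly6C-low cells (exact permutation p = 0.6).

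The 14-exon Cd44 transcript, whose variable junction is printed above, held 28.7 ± 2.29% of the gene's TPM in Ly6C-high and 28.0 ± 1.85% in Ly6C-low cells. It differs from the standard transcript by 5 variable exons of 636 bases in all, by a longer last exon, of 3197 against 1791 bases, and by a longer first exon, of 398 against 243 bases. Reads on any of these stretches can add to its share, so that share cannot be ascribed to the variable exons alone. The standard transcript has 0 bases that the 14-exon transcript lacks. Of its 2818 words of 31 bases, 2789 occur in other Cd44 transcripts, so its share is an estimate as well. The 19-exon transcript held between 1.22% and 2.98% of the TPM over the 6 libraries.

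Cd47 gave 754.4, 662.8 and 619.8 CPM in the Ly6C-high libraries, against 682.6, 637.5 and 567.7 CPM in the Ly6C-low libraries. The groups overlapped, with a log2 fold change of 0.11 (SE 0.11, 95% interval -0.13 to 0.35), which was 0.04 without the third Ly6C-low library. Cd47 had the smallest spread of the 9 in TPM, with a coefficient of variation of 4.38% over the 6 libraries. Its TPM was divided among several coding transcripts. The 813-base coding form held 33.0 ± 2.38% in Ly6C-high and 32.4 ± 0.516% in Ly6C-low cells. The 972-base form held 30.1 ± 2.53% in Ly6C-high and 28.6 ± 1.57% in Ly6C-low cells, and as much as 67.5% of the gene's estimated counts over all libraries, beside 14.1% for the 813-base form.

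Pecam1 was the member whose gene total said least about its protein-coding transcripts. The gene gave 88.7, 80.5 and 68.4 CPM in the Ly6C-high libraries, against 72.6, 84.4 and 72.0 CPM in the Ly6C-low libraries. The groups overlapped, and the log2 fold change was 0.05 (SE 0.11), or 0.01 without the third Ly6C-low library. However, a single-exon transcript of 2142 bases annotated as a retained intron held 85.3 ± 1.02% of its TPM in Ly6C-high and 87.8 ± 3.00% in Ly6C-low cells (exact permutation p = 0.3). It spans sequence of intron 13 of the 14-exon Pecam1 transcript, and 228 of its bases, or 10.6%, lie in exons of other Pecam1 transcripts, among them the 23-base exon printed above. Of its 2077 words of 31 bases, 156 also occur in transcripts of other genes, and the part of reads from those genes in its count was not tested.

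The 6 protein-coding Pecam1 transcripts held between 9.7% and 15.8% of the gene's TPM. They summed to 19.2, 16.9 and 13.8 CPM in the Ly6C-high libraries, against 16.3, 14.1 and 10.2 CPM in the Ly6C-low libraries, from 192 to 363 estimated counts. These groups overlapped as well. The single-exon transcript gave 69.5, 63.6 and 54.7 CPM in the Ly6C-high libraries, against 56.3, 70.3 and 61.8 CPM in the Ly6C-low libraries. In a fit over protein-coding transcripts alone the Pecam1 log2 fold change was 0.29 (SE 0.17, 95% interval -0.09 to 0.67.) No other gene of the 9 had its most abundant transcript outside the protein-coding class.

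**Figure D3:**
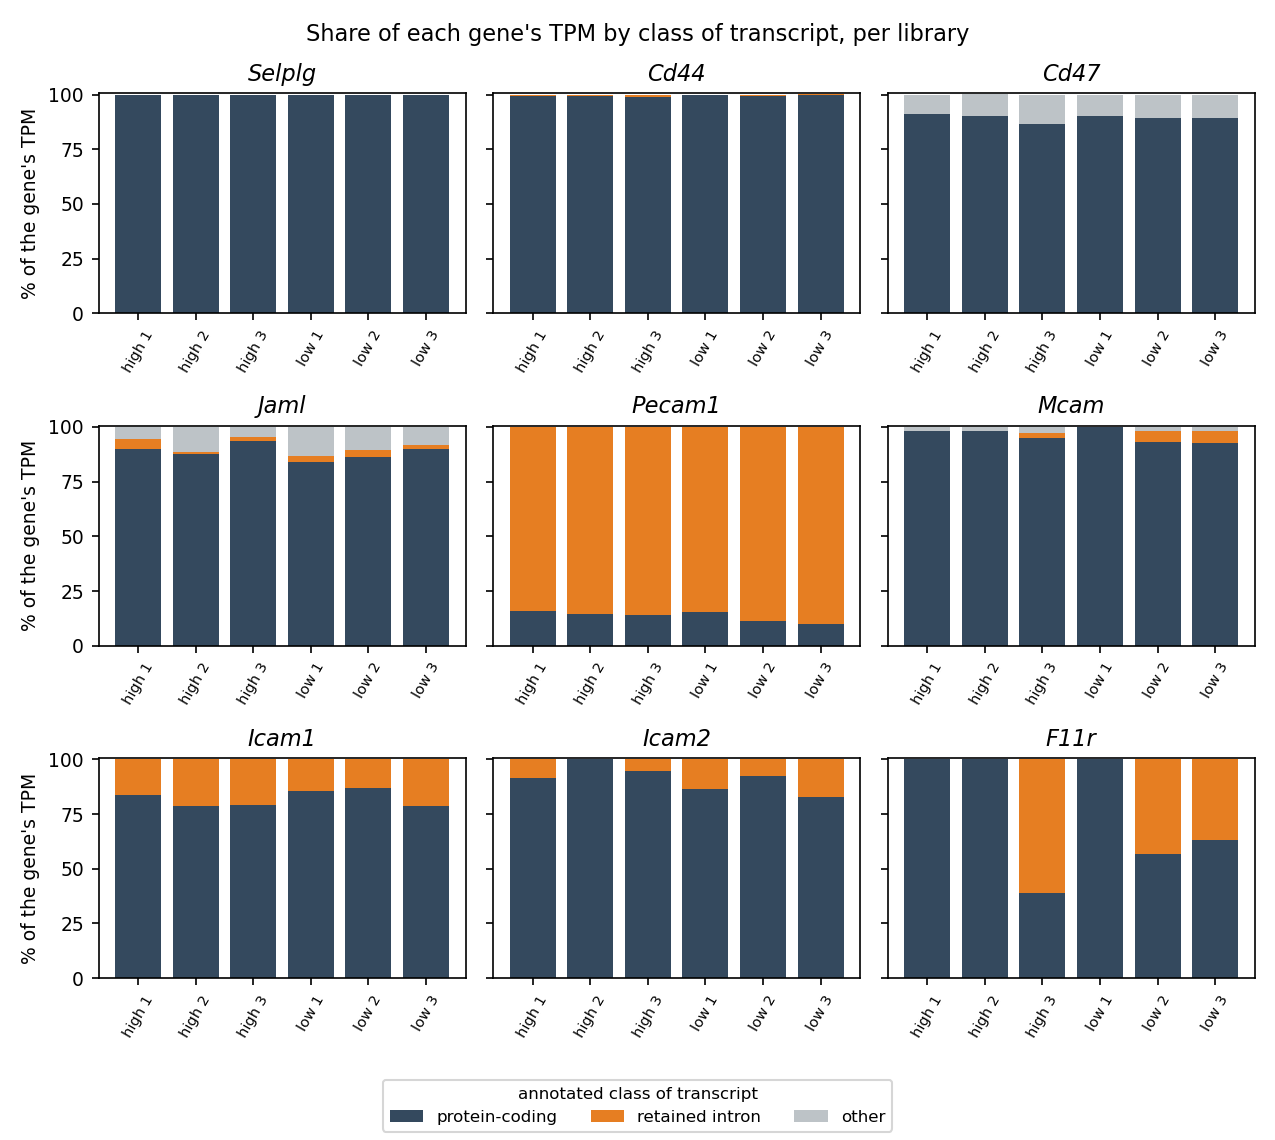
Share of each gene's TPM held by transcripts annotated as protein-coding, as retained intron and as other classes, in percent, with 1 bar per library and Ly6C-high left of Ly6C-low. Protein-coding transcripts hold 9.7% to 15.8% of Pecam1 and 38.7% to 100.0% of F11r, against 99.7% to 99.8% of Selplg.

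Icam2, a constitutive integrin ligand of endothelium and platelets, gave 2.70, 2.67 and 1.71 CPM in the Ly6C-high libraries, against 2.15, 2.57 and 1.96 CPM in the Ly6C-low libraries. The Ly6C-low values lay inside the range of the Ly6C-high values. The log2 fold change was 0.08 (SE 0.26, 95% interval -0.49 to 0.65), from 35 to 51 estimated counts per library, and was 0.00 without the third Ly6C-low library. Its 4-exon transcript with 831 coding bases held 46.3 ± 11.7% of the TPM in Ly6C-high and 26.0 ± 7.54% in Ly6C-low cells. At these counts the shares were not distinguishable between the groups (exact permutation p = 0.2, adjusted p = 0.675 over the 9 genes).

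Of the junctional molecules, Jaml was abundant and F11r close to the lower limit of measurement. Jaml gave 187.5, 199.0 and 229.7 CPM in the Ly6C-high libraries, against 193.3, 208.5 and 196.0 CPM in the Ly6C-low libraries. Its log2 fold change of 0.04 (SE 0.10, 95% interval -0.17 to 0.26) was the smallest in size of the 9. The Ly6C-low values lay inside the Ly6C-high range.

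F11r gave 1.96, 1.92 and 1.42 CPM in the Ly6C-high libraries, against 1.55, 1.41 and 1.54 CPM in the Ly6C-low libraries, from 27 to 37 estimated counts. The log2 fold change was 0.23 (SE 0.27), and the 95% interval of -0.36 to 0.82 spans changes in both directions. The protein-coding transcript of F11r held between 38.7% and 100.0% of its TPM per library, the rest falling on a transcript with a retained intron, so its TPM was highest in the third Ly6C-high library, at 1.28 TPM, where its 1.42 CPM was the lowest of that group.

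**Figure D4:**
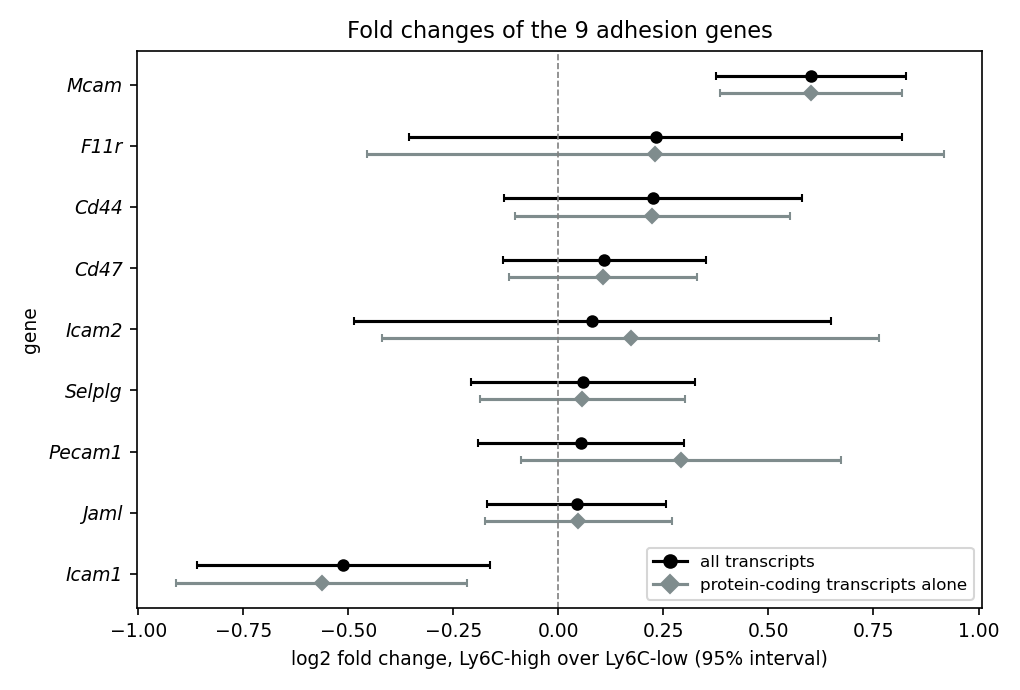
Log2 fold change of the 9 genes, Ly6C-high over Ly6C-low, with 95% intervals, over all transcripts (black) and over protein-coding transcripts alone (grey). The intervals of Mcam and Icam1 lie on either side of 0, at 0.38 to 0.83 and -0.86 to -0.16 over all transcripts, and those of the other 7 genes include 0.

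For 5 of the 9 genes, the interval of the fold change lay within 1.5-fold in either direction. The 7 genes whose groups overlapped had log2 fold changes between 0.04 and 0.23. The share of the most abundant transcript gave an adjusted p of at least 0.675 in each of the 9 genes by the exact test, whose smallest possible p is 0.1 with 3 libraries against 3. These p-values do not show that the shares were equal. Of the 9 genes, 4 (Cd44, Icam1, Mcam and Jaml) overlap a gene on the opposite strand in GENCODE M21. This overlap is of whole gene spans, introns included. The library kit marked strand, but whether the quantification used it is not given in the sources used here. Reads from sequence that such pairs share may therefore not be told apart. Of the words of 31 bases in the transcripts of each gene, few occur on either strand in quantified transcripts of other genes. They were 3 of 6967 for Cd44, 156 of 4309 for Icam1, 7 of 3462 for Mcam and 30 of 3099 for Jaml. Transcripts outside the quantified set were not searched, so these counts may not cover the opposite-strand genes.

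**Figure D5:**
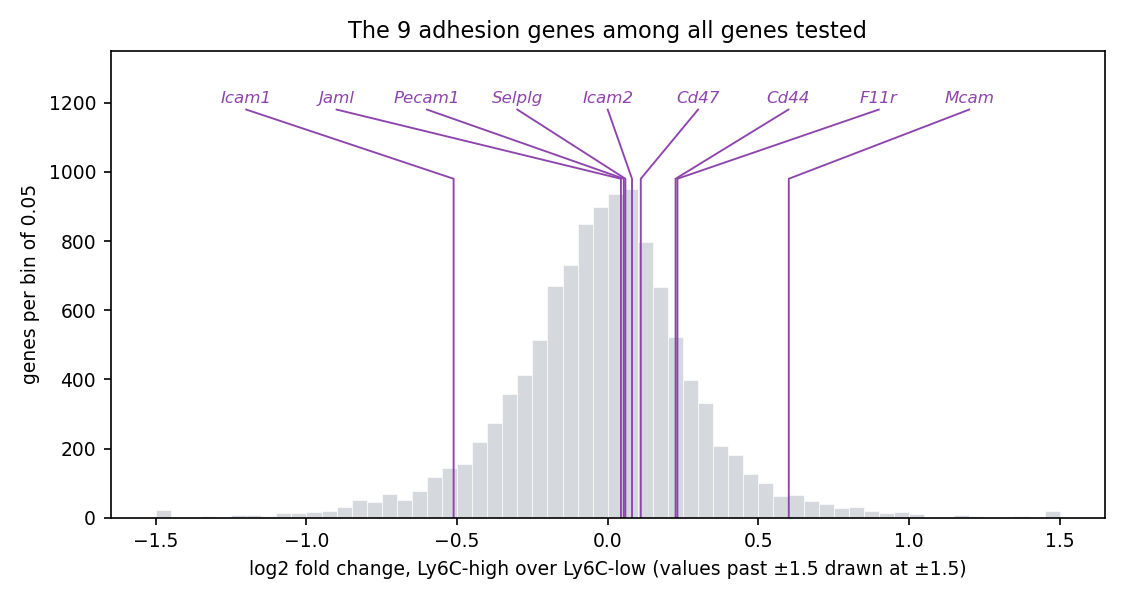
Histogram of the log2 fold changes, Ly6C-high over Ly6C-low, of the 11406 genes tested, in bins of 0.05, with a line for each of the 9 adhesion genes. Mcam at 0.60 and Icam1 at -0.51 stand in the flanks, and the other 7 lie between 0.04 and 0.23.

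The genes that build selectin ligands, among them the fucosyltransferases, sialyltransferases and sulfotransferases that make PSGL-1 and CD44 bind selectins, showed small differences with a median near 0. All 17 on the list were tested, and 12 had a log2 fold change above 0 (5 when scaled by library size alone). The median was 0.03, and 0 passed in edgeR, DESeq2 or limma voom. An unadjusted edgeR p under 0.05 was found for 2 of 17, beside 14.3% of all genes tested. Fut7, the fucosyltransferase that completes the selectin ligand sialyl Lewis x, gave 6.35, 7.41 and 4.95 CPM in the Ly6C-high libraries, against 4.34, 5.40 and 3.08 CPM in the Ly6C-low libraries. Its groups overlapped (log2 fold change 0.54, SE 0.23, and 0.36 without the third Ly6C-low library). Slc35c1, the Golgi carrier of GDP-fucose, averaged 19.5 ± 1.45 CPM in Ly6C-high and 23.2 ± 0.771 CPM in Ly6C-low cells, a log2 fold change of -0.25 (SE 0.10). Fut4 averaged 16.3 ± 2.00 CPM in Ly6C-high and 18.7 ± 3.09 CPM in Ly6C-low cells, a log2 fold change of -0.19 that was -0.084 without that library. The genes named here and in the next 4 lists are among the 3 of each with the smallest p, and their edgeR adjusted p lay between 0.220 and 0.658.

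Of 29 other selectins, selectin ligands and immunoglobulin-type adhesion molecules, 18 were tested, 7 lay above 0 (5 when scaled by library size alone) and the median was -0.11. None passed in edgeR, DESeq2 or limma voom (0 of 18). An unadjusted edgeR p under 0.05 was found for 3 of 18, beside 14.3% of all genes tested. Ceacam1, an inhibitory adhesion receptor of granulocytes, gave 437, 475 and 416 CPM in the Ly6C-high libraries, against 369, 357 and 233 CPM in the Ly6C-low libraries, which did not overlap. Its log2 fold change was 0.47 (SE 0.16), and 0.29 without the third Ly6C-low library. Ncam1, the neural cell adhesion molecule, averaged 11.5 ± 1.36 CPM in Ly6C-high and 8.07 ± 1.11 CPM in Ly6C-low cells. Nectin2 averaged 12.7 ± 1.63 CPM in Ly6C-high and 18.8 ± 6.19 CPM in Ly6C-low cells, a log2 fold change of -0.56 that was -0.28 without that library.

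Among the linkers, kinases and phosphatases that act at the tails of adhesion receptors, 14 of 15 had a log2 fold change above 0, beside 49.2% of all genes tested. With library size alone as the scaling 6 of 15 lay above 0, beside 31.9% of all genes, and without the third Ly6C-low library 10 of 15 did. Their median was 0.07 as reported and -0.03 with library size alone, and 0 passed in edgeR, DESeq2 or limma voom. Of the 15, 4 had an unadjusted edgeR p under 0.05, beside 14.3% of all genes tested. Actn1, the actin cross-linker α-actinin-1, gave between 948 and 1080 CPM in Ly6C-high and between 548 and 910 CPM in Ly6C-low libraries. Its log2 fold change was 0.43, and 0.25 without the third Ly6C-low library. Lyn, which encodes a Src-family kinase, averaged 997 ± 16.3 CPM in Ly6C-high and 842 ± 62.3 CPM in Ly6C-low cells.

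The 7 genes of the CD47 axis had a median log2 fold change of 0.07, with 4 above 0 (2 when scaled by library size alone). None of them passed in DESeq2 or limma voom, and 0 had an unadjusted edgeR p under 0.05, beside 14.3% of all genes tested. Sirpb1a averaged 241 ± 11.1 CPM in Ly6C-high and 259 ± 1.93 CPM in Ly6C-low cells. Thbs1, which encodes the CD47 ligand thrombospondin-1, and Qpct, a glutaminyl cyclase gene, were near the lower limit, at 1.66 ± 0.760 CPM for Thbs1 and 0.545 ± 0.246 CPM for Qpct in Ly6C-high cells and 1.08 ± 0.668 CPM for Thbs1 and 0.363 ± 0.190 CPM for Qpct in Ly6C-low cells. Without the third Ly6C-low library the log2 fold change was 0.18 in place of 0.61 for Thbs1 and 0.33 in place of 0.59 for Qpct.

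Of 13 sheddases and γ-secretase subunits, which cut adhesion molecules such as CD44 at the membrane, 12 were tested, 8 lay above 0 and the median was 0.10, but 5 lay above 0 both without the third Ly6C-low library and when scaled by library size alone. None of the 12 passed in edgeR (0 calls), DESeq2 or limma voom. Of the 12, 2 had an unadjusted edgeR p under 0.05, beside 14.3% of all genes tested. Adam8, a metalloprotease of granulocytes, averaged 559 ± 91.0 CPM in Ly6C-high and 451 ± 35.6 CPM in Ly6C-low cells. The γ-secretase subunit Aph1b averaged 72.0 ± 7.13 CPM in Ly6C-high and 53.5 ± 11.8 CPM in Ly6C-low cells, a log2 fold change of 0.43 that was 0.27 without that library, and Psen2 averaged 41.8 ± 4.26 CPM in Ly6C-high and 48.8 ± 7.55 CPM in Ly6C-low cells.

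The genes whose profile over the 6 libraries lay nearest to that of Mcam, by root mean square distance of centred log2 CPM among 6949 genes, were Clec5a at 0.0711, Mmp8 at 0.0853 and Aqp9 at 0.0868, beside a median distance of 0.331. Clec5a encodes a myeloid lectin receptor, Mmp8 the neutrophil collagenase and Aqp9 a water and glycerol channel. Clec5a averaged 187 CPM in Ly6C-high and 134 CPM in Ly6C-low cells, and Mmp8 averaged 3020 CPM in Ly6C-high and 2000.0 CPM in Ly6C-low cells. The profiles contain the group difference for which Mcam was picked, so the genes nearest to it share its direction by construction. Nearest to Jaml were Galm at 0.0311, Arl11 at 0.0338 and Clec4d at 0.0379, beside a median distance of 0.174.

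Several of the 9 genes are also carried by other blood cells, and markers of these cells were summed per library. The 8 neutrophil markers, led by S100a9 and S100a8, summed to between 111000 and 116000 CPM in Ly6C-high and between 94600 and 104000 CPM in Ly6C-low libraries. The 10 endothelial markers, of interest for Mcam, Icam1, Icam2 and Pecam1, summed to between 3.67 and 5.55 CPM in Ly6C-high and between 4.19 and 8.93 CPM in Ly6C-low libraries, mostly Vwf and Kdr, and Cdh5, Tek, Emcn and Cldn5 were at 0 in all 6. The 12 platelet markers, led by Itgb3 and Nrgn, summed to between 36.6 and 57.0 CPM in Ly6C-high and between 33.0 and 55.3 CPM in Ly6C-low libraries. The 6 T cell markers, led by Cd3d and Cd8a, summed to between 39.7 and 62.3 CPM in Ly6C-high and between 32.8 and 45.9 CPM in Ly6C-low libraries. That sum is mostly Cd3d, which averaged 49.4 CPM in Ly6C-high and 37.3 CPM in Ly6C-low cells. Cd8a averaged 1.15 CPM in Ly6C-high and 1.06 CPM in Ly6C-low cells. Cd3e, Cd3g, Trac and Cd4 did not pass the filter on low counts and gave at most 0.891 CPM in any library. The part of T cells in the Cd3d reads was not tested.

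The summed eosinophil and the summed basophil or mast cell markers were higher in each Ly6C-low library than in any Ly6C-high library, as was Icam1. On their own, 3 of the 4 eosinophil and 3 of the 5 basophil or mast cell genes tested did so. In either direction, the groups did not overlap for 21.1% of all genes tested. The 6 eosinophil markers, led by Siglecf and Ccr3, summed to between 33.6 and 47.5 CPM in Ly6C-high and between 59.1 and 62.6 CPM in Ly6C-low libraries. The 6 basophil or mast cell markers, led by Mcpt8 and Cd200r3, summed to 3.97, 4.43 and 5.92 CPM in the Ly6C-high libraries and to 6.19, 12.8 and 26.9 CPM in the Ly6C-low libraries, highest in the third Ly6C-low library, which also held the most Icam1. Il5ra, at 0.630 ± 0.254 CPM in Ly6C-high and 0.588 ± 0.262 CPM in Ly6C-low cells, and Cd200r3, at 2.05 ± 0.631 CPM in Ly6C-high and 2.97 ± 1.66 CPM in Ly6C-low cells, overlapped between the groups. The part of these cells in the Icam1 difference was not tested.

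Neutrophil and monocyte markers held genes that lay apart in the direction of Mcam. Of the 8 neutrophil markers 5 did not overlap between the groups, beside 21.1% of all genes tested, in either direction. All 5 were higher in Ly6C-high cells, among them S100a8, S100a9 and Mmp8. Csf3r lay the other way, at 5290 ± 161 CPM in Ly6C-high and 5920 ± 753 CPM in Ly6C-low cells. The 6 monocyte markers, led by Csf1r and Ccr2, summed to between 355 and 362 CPM in Ly6C-high and between 361 and 434 CPM in Ly6C-low libraries, a sum that is mostly Csf1r. Csf1r averaged 342 ± 1.51 CPM in Ly6C-high and 388 ± 34.8 CPM in Ly6C-low cells. Its groups did not overlap, in the direction opposite to Mcam. The other monocyte markers that were tested, which are low, did not overlap and were higher in Ly6C-high cells, with Ccr2 at 11.2 ± 0.769 CPM in Ly6C-high and 6.96 ± 2.22 CPM in Ly6C-low cells, and Cx3cr1 at 0.886 ± 0.388 CPM in Ly6C-high and 0.155 ± 0.00494 CPM in Ly6C-low cells. F13a1 and Ms4a6c were 1.73-fold and 2.05-fold higher in Ly6C-high cells. The part of monocytes, or of the neutrophil markers, in the Mcam difference was not tested.

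The summed erythroid and B cell markers overlapped between the groups. The 6 erythroid markers, led by Hbb-bs and Hba-a2, summed to between 247 and 903 CPM in Ly6C-high and between 585 and 886 CPM in Ly6C-low libraries. The 5 B cell markers, led by Cd79a and Ebf1, summed to between 3.53 and 6.08 CPM in Ly6C-high and between 3.14 and 4.98 CPM in Ly6C-low libraries. Of the 4 epithelial markers, which 4T1 cells could add, Krt8, Krt18 and Krt19 were at 0 in all 6 libraries, and Epcam gave between 0.0533 and 0.317 CPM in Ly6C-high and at most 0.053 CPM in Ly6C-low libraries.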

How the data were processed

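RNA of sorted neutrophils was sequenced as single-end reads of 75 cycles from polyadenylated RNA, per the labels' protocols, with 13 PCR cycles from 100 ng of total RNA and a kit that marks strand. The authors quantified transcripts with kallisto and named build GRCm39, per the submitters' processing notes, but its version, index and strand setting were not stated there. The deposited tables give estimated counts, TPM and, as other columns, transcript lengths for 117486 transcripts, per the file headers. Replicate libraries differed beyond sampling noise, with a chi-square per gene between 14.3 and 48.2, and each was counted as 1 sample.

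Transcripts were matched by identifier to GENCODE M21 (99.04%, holding 99.747% to 99.767% of the estimated counts), and values were summed over 35853 genes, with unmatched transcripts left out. Estimated counts were rounded and tested with edgeR 4.0.16 in R 4.3.3, with filterByExpr, TMM scaling, the robust quasi-likelihood F test, group as the only term and Benjamini-Hochberg adjustment over 11406 genes. The common biological coefficient of variation was 13.7%. TPM served for levels between genes and shares within genes, with exact permutation tests. GENCODE M21 is on GRCm38, so gene coordinates are not given.

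The 9 genes, the 5 pathway lists and the 10 marker lists were chosen with earlier results of these data known. The genes named were the 9, the 3 with the smallest p in each pathway list, the 2 most abundant of each marker list with those at 0 in all libraries, and the 3 nearest profiles, with a mean of at least 5 CPM, to the members with the largest and the smallest fold change. Other markers were named after their values were seen. A gene that this rule takes is not reported here. Alternatives were DESeq2 1.42.0 size factors or its Wald test, library size alone, no filter, a mean count of 10, limma 3.58.1 voom, length-scaled TPM, protein-coding genes alone, a replicate block and each library left out. Protein-coding transcripts alone was added after seeing the data. The edgeR and permutation steps were tested on simulated data.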

Additional observations from a re-analysis of the deposited data

How the results depend on the processing

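Over 16 alternatives, which include leaving out each of the 6 libraries, Mcam stayed above 0, with log2 fold changes between 0.50 and 0.66, and Icam1 stayed below 0, between -0.63 and -0.34. Of the 9 genes, 0 passed the threshold in the reported test, 1 with the replicate block and 1 with the DESeq2 Wald test (Mcam in both), and 2 with no filter (Mcam and Icam1). With no filter Actn1, Aph1b, Ceacam1 and Nectin2 passed as well. The count over all genes was 4 as reported, 61 with the replicate block, 8 with library size alone, 439 with no filter over 20580 genes, 126 with the DESeq2 Wald test and 2 with length-scaled TPM. It lay between 2 and 22 with a library left out, and was 22 without the third Ly6C-low library. The labels state no pairing by replicate number. Deviations of same-numbered libraries correlated at 0.24, -0.04 and 0.24, and those of differently numbered libraries at between -0.31 and 0.11. These few values do not settle whether same-numbered libraries are paired.

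Library size alone moved the median of all genes to -0.11 and turned Selplg to -0.041, Icam2 to -0.023, Pecam1 to -0.053 and Jaml to -0.062. Length-scaled TPM turned Icam2 to -0.25 and Jaml to -0.0093. With a library left out the log2 fold change ranged from -0.027 to 0.27 for Icam2, from -0.036 to 0.15 for Pecam1, from -0.043 to 0.11 for Jaml and from -0.057 to 0.17 for Selplg. No direction holds for these 4 genes, and the causes were not tested.

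In the order of levels, Pecam1 over Mcam turned to a log2 ratio of -1.62 over protein-coding transcripts, since the single-exon transcript is then left out, and Icam1 over Icam2 passed at 1.33 as CPM per kilobase of the longest transcript (exact paired permutation, adjusted p = 0.03125). With 5 libraries no pair can pass, and the log2 ratio ranged from 0.41 to 0.49 for Selplg over Cd44, from 0.91 to 1.04 for Cd44 over Cd47, from 1.36 to 1.44 for Cd47 over Jaml, from 1.51 to 1.63 for Jaml over Pecam1, from 1.15 to 1.31 for Pecam1 over Mcam, from 1.54 to 1.86 for Mcam over Icam1 and from 1.99 to 2.32 for Icam2 over F11r. As shares of estimated counts in place of TPM, the transcript with the highest TPM held 97.3% of Selplg, 54.2% of Cd44, 14.1% of Cd47, 62.6% of Icam2, 80.7% of Pecam1 and 89.5% of Jaml. Depth limits Icam2 and F11r, with 27 to 51 estimated counts per library.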
